A study of Mus musculus with 30 samples.

Results

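Hepatic transcripts of 10 genes that break down heme, build heme, or move and store iron were followed in livers of mice that differed in the KEAP1-NRF2 pathway. The 10 genes were chosen by symbol, and each was 1 of the 55335 rows of the count table: Hmox1, Blvra, Blvrb, Fth1, Ftl1, Slc40a1, Hamp, Tfrc, Alas1, and Fech. All 10 passed the filter on low counts in each comparison. The mice were male, 7 to 10 weeks of age, and on an albino C57BL/6J background. They were wild-type (WT), Keap1 C151S knock-in made with CRISPR-Cas9 (C151S, a serine in place of the sensor cysteine of KEAP1 in every cell), or germline Nrf2-knockout (Nrf2KO). Each mouse received 1 oral dose of vehicle (dimethyl sulfoxide, Cremophor-EL, and phosphate-buffered saline) or of CDDO-Me (bardoxolone methyl, a synthetic triterpenoid that activates NRF2) at 30 µmol/kg, and liver was taken 24 hours later. There were 5 mice in each of the 6 genotype and treatment groups and 30 libraries in all. The WT mice were bought from a vendor and both mutants were bred as homozygotes, so genotype and source cannot be told apart.

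Libraries held 23667068 to 42073169 counts on genes. Nqo1, the usual marker of NRF2 activity, was 8.94-fold higher after CDDO-Me in WT mice (7.17 ± 2.40 against 64.2 ± 25.3 CPM, mean ± SD, n = 5), and its log2 change was 0.07 in C151S and 0.37 in Nrf2KO mice. Nfe2l2 reads, which code for NRF2, were lower in Nrf2KO than in WT vehicle mice (35.2 ± 4.85 against 65.8 ± 4.02 CPM), so part of that transcript was still made, and the C151S change is not visible in counts. CPM are counts scaled to a common library size. Summed hepatocyte markers were high in all libraries. In 11 of the 20 mutant libraries, and in 0 of the 10 WT libraries, the clock gene Arntl was low (log2 CPM of -1.18 to 0.90, against 2.53 to 4.80 in the other 19). These libraries were spread over the 4 mutant groups, 2 or 3 in each, and calls that were lost without them are given both ways.

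Heme is opened by heme oxygenase to biliverdin, carbon monoxide, and iron, and biliverdin is then reduced to bilirubin. Blvra and Blvrb are both named as biliverdin reductases, and counts do not show which of them forms bilirubin. Freed iron is held in ferritin shells of heavy and light chains or leaves the cell through ferroportin, which hepcidin, a peptide hormone of the hepatocyte, removes from the membrane, while the transferrin receptor brings iron in. Heme itself is built in a chain that opens with 5-aminolevulinate synthase in mitochondria and closes with ferrochelatase. In hepatocytes that synthase is the rate-limiting step, and the clock and fasting are both known to move it.

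Iron also acts on several of these messages through the iron-responsive element (IRE), a short hairpin that iron regulatory proteins bind when iron is low: in a 5′ untranslated region it holds back translation, and in a 3′ untranslated region it protects the message from decay. A count of messages sees the second action and not the first, which is why the hairpins are shown before the values. The pattern searched on the transcript strand of the annotated untranslated regions of GRCm38 was a C, any 5 bases, a loop of CAGTG and a base other than G, and 5 bases that pair with the 5 before the loop, with G-T pairs allowed. It was found in 4 of the 10 genes, each shown with 6 further bases on either side and the 6 loop bases in capitals. Ferritin heavy chain (Fth1, 5′ untranslated region, chr19:9982732-9982760, plus strand), ferritin light chain (Ftl1, 5′, chr7:45459779-45459807, minus strand), and ferroportin (Slc40a1, 5′, chr1:45925465-45925493, minus strand) held 1 match each, and the transferrin receptor (Tfrc) held 4 in its 3′ untranslated region on the plus strand, at chr16:32631219-32631247, chr16:32631598-32631626, chr16:32631663-32631691, and chr16:32631710-32631738.
Fth1: ttcctgcttcaaCAGTGCttgaacggaac
Ftl1: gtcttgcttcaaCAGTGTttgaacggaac
Slc40a1: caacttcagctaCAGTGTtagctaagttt
Tfrc, match 1: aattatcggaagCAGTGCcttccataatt
Tfrc, match 2: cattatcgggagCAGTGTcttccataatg
Tfrc, match 3: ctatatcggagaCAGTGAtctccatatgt
Tfrc, match 4: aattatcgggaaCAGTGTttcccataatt
Of all genes with an annotated 5′ untranslated region, 23 of 20916 (0.11%) held the pattern there, and for the 3′ untranslated region it was 100 of 21707 (0.461%). A match describes the letters only.

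Levels can be compared roughly between genes per length, as RPKM (counts scaled by library size and by the length of the joined exons). The joined exons of all annotated transcripts measured 410 bases for Hamp, 1340 for Ftl1, 3469 for Fth1, and 13838 for Fech. A joined length can exceed that of the message made in liver, so the order depends in part on the annotation. In vehicle-treated WT liver the order of RPKM levels was Ftl1 at 1223 ± 233, Hamp at 925 ± 267, Fth1 at 370.0 ± 34.6, Alas1 at 45.4 ± 13.7, Blvrb at 33.4 ± 2.94, Slc40a1 at 12.6 ± 2.36, Fech at 12.6 ± 0.34, Hmox1 at 8.31 ± 0.74, Tfrc at 6.17 ± 2.06, and Blvra at 4.61 ± 0.31 (mean ± SD, n = 5). In RPKM the ferritin chains and hepcidin thus stood far above the enzymes and transporters. In CPM, which leaves length out, Fth1 (1283 ± 120) was above Hamp (379 ± 110), and Alas1 was at 280 ± 84.7. Neighbours in the RPKM order whose SDs overlapped were Ftl1 and Hamp, Alas1 and Blvrb, Slc40a1 and Fech, Hmox1 and Tfrc, and Tfrc and Blvra. Within the range of CPM over all 30 libraries, Alas1 was the most variable of the 10, from 40.0 to 1804 CPM, and Blvra (9.87 to 14.96) and Fech (125 to 213) were the narrowest.

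**Figure D1:**
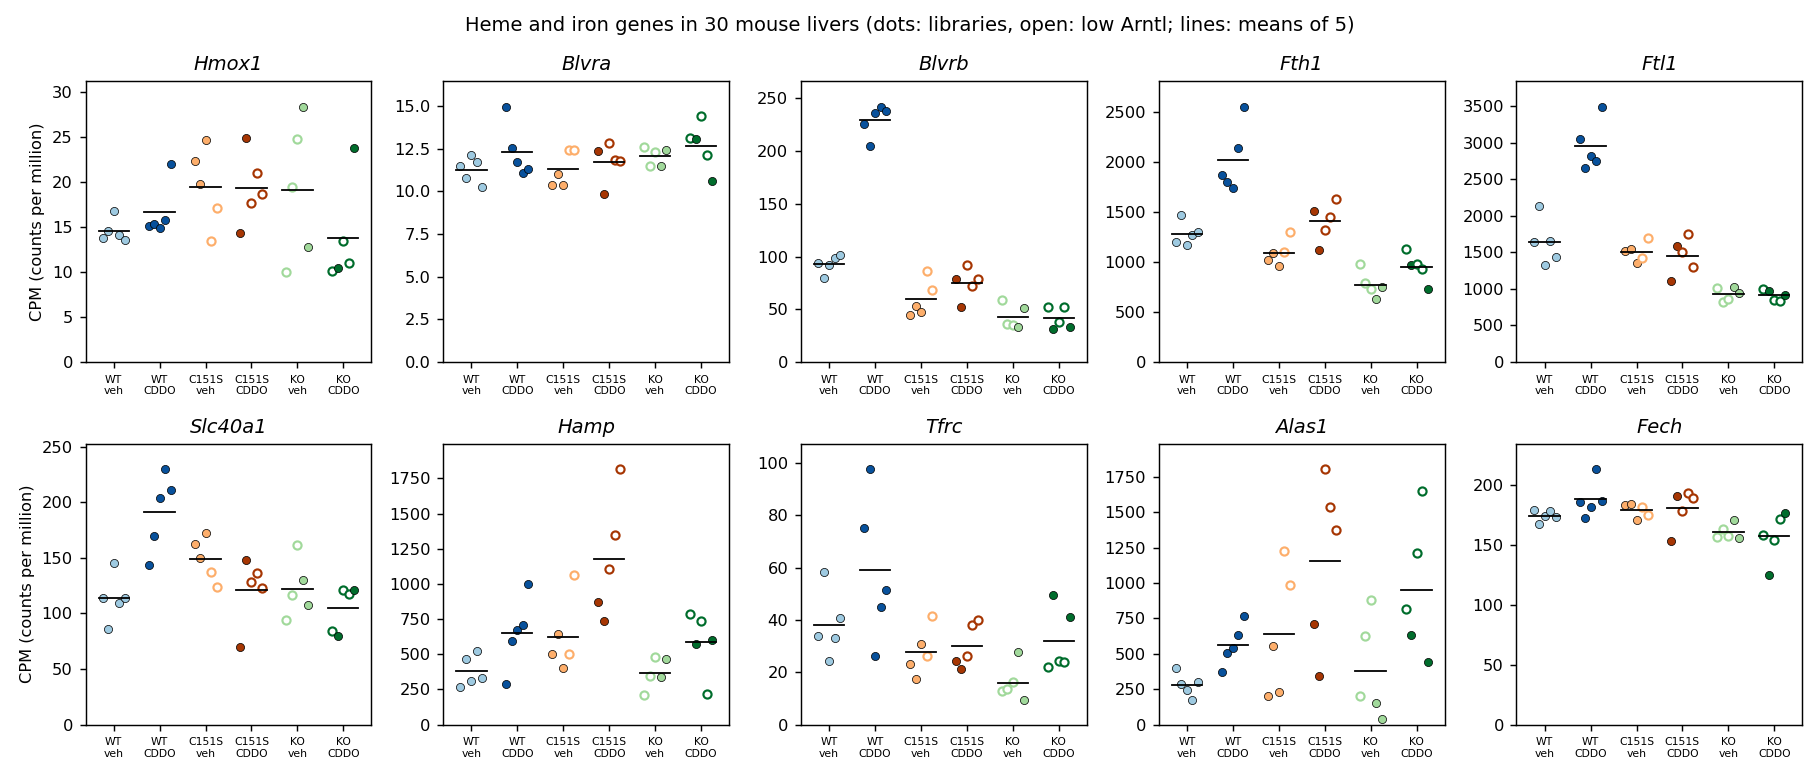
CPM of the 10 genes (vertical axes, linear) in each of the 30 libraries, by genotype and treatment (horizontal axes). Points are mice, lines are means of 5 mice, and open points are the 11 mutant libraries with low Arntl. Blvrb, Fth1, and Ftl1 separate WT mice by treatment with no overlap, and Alas1 spreads widely in the mutant groups.

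CDDO-Me in WT mice raised 5 of the 10 genes, namely Blvrb, Ftl1, Fth1, Slc40a1, and Alas1, and lowered none. Genes were called at a false discovery rate under 0.05 in edgeR's quasi-likelihood test with Benjamini-Hochberg adjustment over all genes tested, provided the log2 fold change was 0.5 or more in size. At these limits 1.66% of all genes tested were called higher and 1.1% lower. The median log2 fold change of the 10 genes was 0.69, all 10 estimates were above 0, and the median over all genes tested was -0.01. In 3 of the 10 (Blvrb, Fth1, and Ftl1) every treated WT mouse was above every WT vehicle mouse. Of all genes tested, 5.64% had groups that did not overlap, in either direction. In bulk liver, fewer cells of a type and less RNA per cell cannot be told apart.

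Of the heme breakdown genes among the 10 (Hmox1, Blvra, and Blvrb), Blvrb alone passed the test for treatment in WT mice. Blvrb, biliverdin reductase B, was at 94.2, 80.0, 91.5, 98.4, and 101 CPM in the 5 vehicle mice and at 225, 205, 236, 242, and 238 CPM in the 5 CDDO-Me mice. The lowest treated mouse was far above the highest vehicle mouse, and each group was narrow. The change was 2.45-fold (log2 1.29 ± 0.08, standard error, adjusted p = 3.63e-06), and it was called in 16 of 16 alternative fits. Hmox1, the inducible heme oxygenase and a textbook NRF2 target, was at 13.8, 14.5, 16.8, 14.1, and 13.6 CPM with vehicle and at 15.1, 15.4, 14.9, 15.8, and 22.03 CPM with CDDO-Me. These values overlapped, and the highest of them came from 1 treated mouse. The log2 change of Hmox1 was 0.18 ± 0.11 (adjusted p = 0.465). Blvra, the other biliverdin reductase, had a log2 change of 0.12 ± 0.09 (adjusted p = 0.605) on 262 to 601 counts per library, the thinnest depth among the 10 genes at its lowest.

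The promoters of the reductase genes were read because both genes are named as biliverdin reductases and their measured changes differed. The 120 bases upstream of the Blvra start (RefSeq, GRCm38.p6, chr2:127070537-127070656, plus strand) held 1 match to the core of the antioxidant response element, TGACNNNGC, on the reverse strand at base -49, in capitals, and those upstream of Blvrb (chr7:27447858-27447977, plus strand) held none.
Blvra: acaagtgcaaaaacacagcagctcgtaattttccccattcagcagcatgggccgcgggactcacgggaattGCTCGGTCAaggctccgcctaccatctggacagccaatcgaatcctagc
Blvrb: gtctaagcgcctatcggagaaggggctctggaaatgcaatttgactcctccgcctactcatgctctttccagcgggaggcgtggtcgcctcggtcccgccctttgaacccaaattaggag
Between the reductases, the match was in the gene that was not called. Over 250 bases before to 50 after the start, the core occurred in 12.4% of 32851 RefSeq promoters, counting both strands, and the E-box CACGTG in 7.15%. Promoters were at hand for 7 of the 10 genes, and those of Blvrb, Fth1, Ftl1, Hamp, Tfrc, and Alas1 held neither motif in this window. Sequence farther from the start was not searched, so a window without a match does not show that a gene lacks the element. Outside the 10, the promoters of Bmp6 (base -108) and Hfe (base -67), genes described further on, each held 1 match to the core. That of Bmp6 also held an E-box, at base -127. Bmp6 was called higher with CDDO-Me in WT mice, and Hfe stayed under the limit on fold change.

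Both ferritin chains rose with CDDO-Me in WT mice, and no treated mouse overlapped a vehicle mouse for either. Ftl1, the light chain, was at 1646, 2135, 1320, 1657, and 1434 CPM with vehicle and at 3047, 2656, 2817, 2752, and 3495 CPM with CDDO-Me. Fth1, the heavy chain that oxidizes iron for storage, was at 1203, 1477, 1169, 1268, and 1300 CPM with vehicle and at 1875, 1798, 1745, 2143, and 2559 CPM with CDDO-Me. In both genes the highest treated mouse was replicate 5, which was also the highest for Hmox1. Ftl1 rose 1.79-fold (log2 0.84 ± 0.13, adjusted p = 0.0024) and Fth1 1.57-fold (log2 0.65 ± 0.11, adjusted p = 0.0061), and each was called in 16 of 16 alternative fits. A transcript annotated as a light chain pseudogene, Ftl1-ps1, had a median of 293 counts against 47097 for Ftl1 and rose alike (log2 0.80 ± 0.14, adjusted p = 0.0081). Reads with more than 1 position were not counted, so how reads divide between these near-identical sequences is uncertain.

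Ferroportin rose in WT mice, while the transferrin receptor and hepcidin gave estimates above 0 that did not pass the test. Slc40a1, the sole known iron exporter, was at 114, 85.8, 146, 109.7, and 114 CPM with vehicle and at 143, 170.1, 204, 229.7, and 211 CPM with CDDO-Me. The lowest treated mouse fell just below the highest vehicle mouse, and the other treated mice were above all 5. Slc40a1 was 1.67-fold higher (log2 0.74 ± 0.15, adjusted p = 0.0122), and it was called in 16 of 16 alternative fits. Tfrc, which takes up transferrin-bound iron, was at 34.0, 58.5, 24.4, 33.2, and 40.6 CPM with vehicle and at 75.4, 97.6, 26.2, 44.9, and 51.4 CPM with CDDO-Me. Vehicle and treated mice overlapped, and 2 treated mice were above the rest (log2 0.62 ± 0.31, adjusted p = 0.335). Summed markers of Kupffer cells and macrophages, which also carry ferroportin and heme oxygenase, overlapped between the WT groups (97.2 to 262 CPM with vehicle and 148 to 230.5 with CDDO-Me, 0 of 7 called).

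Hamp, the hepcidin gene, was at 268, 469.7, 308, 521, and 329.5 CPM in WT vehicle mice and at 288, 597, 669, 706, and 1002 CPM in WT CDDO-Me mice. Of the treated mice, replicate 1 was among the vehicle values and the other 4 were above all of them. The log2 change was 0.77 ± 0.27 with an adjusted p of 0.149 in edgeR, and without that 1 library it was 0.96 with an adjusted p of 0.0293, so 1 mouse decided the call. The stretch of the Hamp promoter that is known for its bone morphogenetic protein (BMP) and STAT elements (RefSeq, GRCm38.p6, chr7:30944074-30944193, minus strand) is shown with its match to GGCGCC at base -109 and to TTCNNNGAA at base -97 in capitals. It is shown because these elements join hepcidin to the BMP and inflammatory genes described further on.
Hamp: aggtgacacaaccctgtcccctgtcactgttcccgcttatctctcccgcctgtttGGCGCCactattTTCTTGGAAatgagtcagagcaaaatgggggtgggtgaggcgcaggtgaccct
These 2 motifs were searched after the sequence was read, and over 300 bases they occurred in 11.9% and 8.3% of all promoters. The Tfrc promoter also held GGCGCC, at base -89, and that of Alas1 held TTCNNNGAA, at base -171.

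Heme synthesis showed a change at its entry and not at its exit in WT mice. Alas1, the rate-limiting synthase of hepatocytes, was at 402, 285, 242, 171, and 302 CPM with vehicle and at 372, 509, 540.1, 635, and 764 CPM with CDDO-Me. The lowest treated mouse was below the highest vehicle mouse and the other 4 treated mice were above all vehicle mice. Alas1 was 1.998-fold higher (log2 1.00 ± 0.22, adjusted p = 0.0211 in edgeR). That call was lost without WT vehicle replicate 3 (log2 0.95, adjusted p = 0.0647) and when all 30 libraries shared 1 estimate of the spread (log2 1.01, adjusted p = 0.618), with SDs of 356 to 607 CPM in the mutant groups beside 84.7 and 146 CPM in the WT groups. Fech, ferrochelatase, was at 174 ± 4.73 CPM with vehicle and 188 ± 15.1 CPM with CDDO-Me (log2 0.10 ± 0.07, adjusted p = 0.511).

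**Figure D2:**
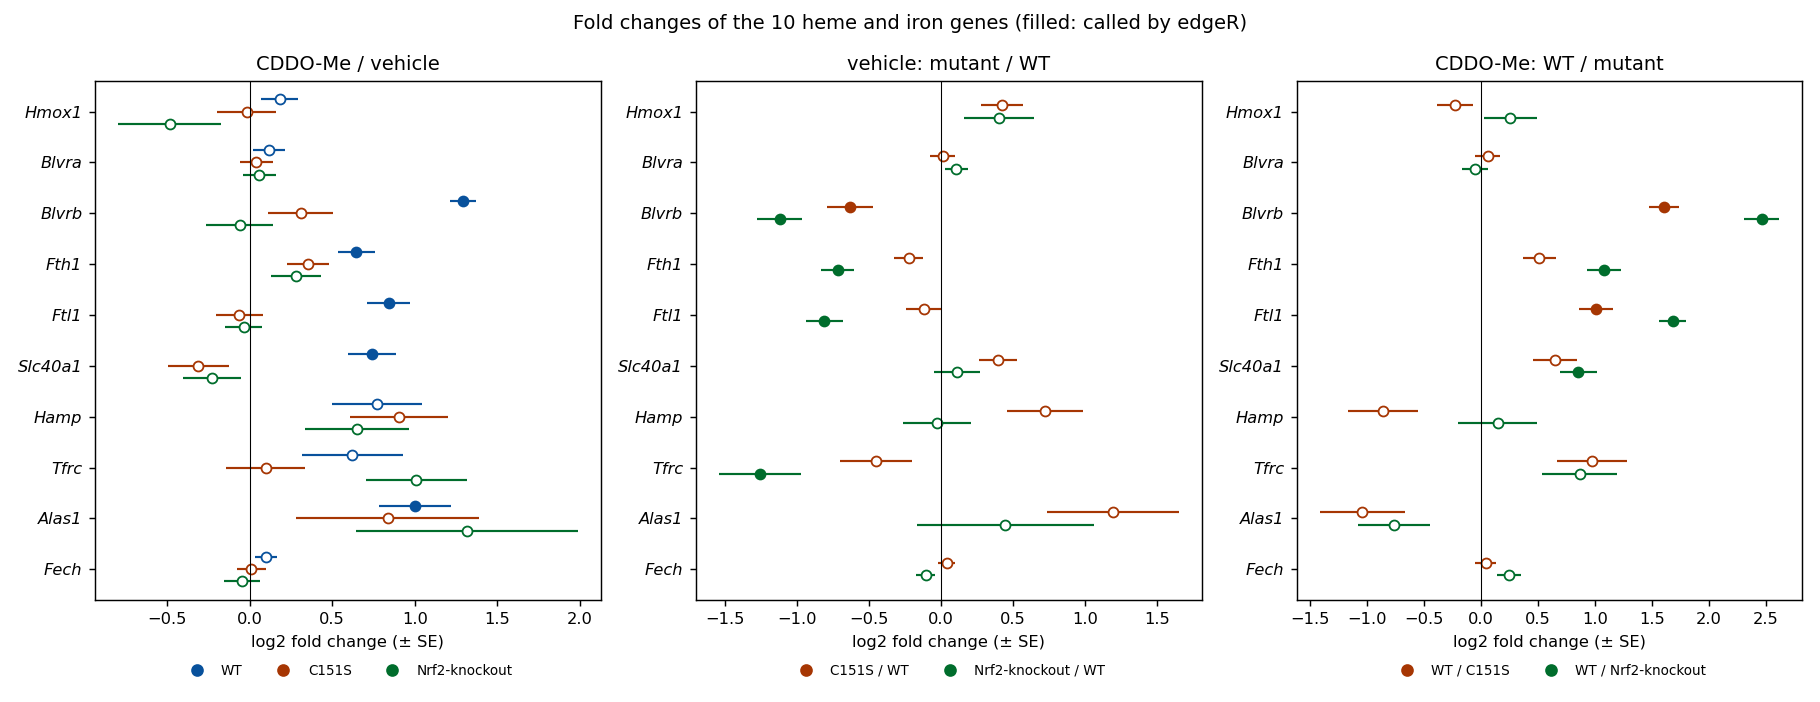
Log2 fold changes of the 10 genes (horizontal axes) with standard errors as bars, in panels of treatment within genotype, of genotype comparisons in vehicle mice, and of genotype comparisons in CDDO-Me mice. Filled points passed the false discovery rate and fold change limits. For treatment, all 5 filled points belong to WT mice.

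In C151S mice, 0 of the 10 genes were called after CDDO-Me in edgeR, beside 0.092% of all genes tested. Of the 10, 2 had an unadjusted p under 0.05, beside 1942 of the 14128 genes tested. DESeq2 also called 0 of the 10. The median log2 change of the 10 genes was 0.07, beside -0.01 over all genes, and 0 of the 10 had treatment groups that did not overlap, beside 2.21% of all genes. Blvrb was at 44.6, 53.2, 47.3, 86.0, and 68.6 CPM with vehicle and at 79.1, 52.5, 91.6, 71.9, and 78.7 CPM with CDDO-Me. Vehicle and treated mice overlapped (log2 0.31 ± 0.20, adjusted p = 0.478). Ftl1 was at 1512, 1551, 1359, 1418, and 1701 CPM with vehicle and at 1114, 1585, 1500, 1756, and 1302 CPM with CDDO-Me, again with overlap (log2 -0.06, adjusted p = 0.853). Fth1 had a mean of 1095 ± 130 CPM with vehicle and 1408 ± 195 CPM with CDDO-Me (log2 0.35 ± 0.13, adjusted p = 0.351). Slc40a1 gave a log2 change of -0.31 ± 0.18 (adjusted p = 0.450). Alas1 gave 0.84 ± 0.55 (adjusted p = 0.494). The largest estimate belonged to Hamp, at 501, 646, 402, 505, and 1062 CPM with vehicle and at 875, 738, 1104, 1345, and 1815 CPM with CDDO-Me. Treated mice were mostly the higher, with 1 vehicle mouse among them (log2 0.90 ± 0.30, adjusted p = 0.350).

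In Nrf2KO mice, 0 of the 10 genes were called after CDDO-Me in edgeR, as were 0% of all genes tested. An unadjusted p under 0.05 was found for 1 of the 10 and for 1136 of the 14474 genes tested, and DESeq2 called 0 of the 10 and 50 of all genes. The median log2 change of the 10 genes was 0.01, and 0 of the 10 had groups that did not overlap, beside 1.8% of all genes. Blvrb, at 58.3, 35.8, 34.8, 33.1, and 51.1 CPM with vehicle and at 52.4, 31.5, 37.5, 51.7, and 33.1 CPM with CDDO-Me, overlapped throughout (log2 -0.06 ± 0.20, adjusted p = 0.957). Ftl1 likewise overlapped, at 1007, 816, 860, 1021, and 939 CPM with vehicle and at 996, 972, 845, 834, and 919 CPM with CDDO-Me (log2 -0.04, adjusted p = 0.948). Tfrc was at 12.7, 13.6, 16.1, 27.6, and 9.27 CPM with vehicle and at 21.97, 49.4, 24.2, 24.0, and 41.1 CPM with CDDO-Me. Just 1 vehicle mouse reached into the treated values, and the estimate was the one of the 10 with an unadjusted p under 0.05 (log2 1.01 ± 0.30, adjusted p = 0.547). The largest estimate was that of Alas1, at 1.31 ± 0.67 (adjusted p = 0.666), which is above the called WT estimate of 1.00. Hamp gave a log2 change of 0.65 ± 0.32 (adjusted p = 0.654), so its estimate was above 0 in all 3 genotypes and was called in none.

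Whether the responses differed between genotypes was tested as a difference of log2 changes in a fit of all 30 libraries, called at a false discovery rate under 0.05 with no limit on size. The WT response of Ftl1 exceeded that of C151S mice by 0.91 ± 0.18 (adjusted p = 0.0073, edgeR) and that of Nrf2KO mice by 0.87 ± 0.18 (adjusted p = 0.0162). Both differences use the same WT mice. Against C151S, Ftl1 was the 1 of the 10 genes called, beside 0.386% of all genes with a larger WT response. Against Nrf2KO, Ftl1 and Blvrb were called, beside 0.24%, and Blvrb differed by 1.35 ± 0.26 (adjusted p = 0.0145). The Ftl1 call against Nrf2KO was lost without WT vehicle replicate 5 (0.83, adjusted p = 0.0523).

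Slc40a1 narrowly missed the threshold against C151S, and Blvrb was further from it. The difference was 1.05 ± 0.25 for Slc40a1 (adjusted p = 0.0511) and 0.98 ± 0.26 for Blvrb (adjusted p = 0.119). DESeq2 called both, with adjusted p of 0.0126 and 0.0379, and in edgeR the Slc40a1 difference was called without any 1 of C151S CDDO-Me replicate 2, C151S vehicle replicate 5, WT CDDO-Me replicate 1, or WT vehicle replicate 3 (1.11 to 1.16). For Fth1 the difference was 0.30 ± 0.19 against C151S and 0.37 ± 0.19 against Nrf2KO (adjusted p = 0.728 and 0.827). For Hamp it was -0.13 ± 0.46 and 0.11 ± 0.46, and for Alas1 0.17 ± 0.80 and -0.32 ± 0.80, with standard errors too wide to place these responses above or below that of WT mice.

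In vehicle mice the genotypes already differed at Blvrb and, for Nrf2KO, at the ferritins and Tfrc. The comparisons share the WT vehicle mice. Against WT, the Nrf2KO livers had 4 of the 10 genes lower and 0 higher, beside 4.13% of all genes lower. Blvrb was 2.17-fold lower (42.6 ± 11.4 against 93.1 ± 8.19 CPM, log2 -1.12 ± 0.16, adjusted p = 0.0013). The ferritin chains were also lower, Ftl1 1.75-fold (929 ± 89.7 against 1638 ± 312 CPM, log2 -0.81 ± 0.13, adjusted p = 0.0027) and Fth1 1.65-fold (776 ± 130 against 1283 ± 120 CPM, log2 -0.72 ± 0.12, adjusted p = 0.0031). For these 3 genes no Nrf2KO mouse reached the lowest WT mouse, and 12.4% of all genes had groups that did not overlap, in either direction. Tfrc was 2.39-fold lower (15.8 ± 7.005 against 38.2 ± 12.7 CPM, log2 -1.26 ± 0.29, adjusted p = 0.0141), with 1 Nrf2KO mouse among the WT values. Without the 3 low-Arntl Nrf2KO libraries the Tfrc difference was -1.04 (adjusted p = 0.157).

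Red cell markers moved with this comparison: their summed CPM ran from 138 to 213 in Nrf2KO vehicle mice and from 221 to 327 in WT vehicle mice, 3 of 5 tested (Hbb-bt, Hbb-bs, and Hba-a1) were called lower, and their part in the Tfrc and Blvrb results was not tested. The endothelial sums were 218 to 367 CPM and 183 to 221 CPM in the same groups, with 3 of 6 markers called higher (Stab2, Lyve1, and Oit3). Stellate cell sums were 145 to 426 CPM and 159 to 226 CPM, with 2 of 5 called higher (Des and Colec11). Neutrophil sums were 0.974 to 9.94 CPM and 0.697 to 1.45 CPM, with both tested markers called higher (S100a8 at log2 2.22 and S100a9 at 1.78). The part of these cells in the results of this comparison was not tested. Between C151S and WT vehicle mice the marker calls were Fcgr2b of endothelium (0.51) and Spp1 of bile ducts (-0.83). All 6 endothelial estimates were above 0, with sums of 211.5 to 311 CPM in C151S and 183 to 221 CPM in WT mice. Of 5 bile duct estimates 0 were above 0, with sums of 18.1 to 26.8 CPM and 24.85 to 54.5 CPM. The part of these cells in the C151S results was not tested.

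In C151S vehicle mice only Blvrb was called among the 10 genes against WT, lower by a factor of 1.55 (59.9 ± 17.3 against 93.1 ± 8.19 CPM, log2 -0.63 ± 0.16, adjusted p = 0.0363), beside 2.25% of all genes called lower. None of the 10 had groups that did not overlap, beside 9.13% of all genes. The C151S mice with low Arntl, at 86.0 and 68.6 CPM, were the higher of the group and the other 3 were at 44.6 to 53.2 CPM. Blvrb differed by -0.94 without the 2 low-Arntl libraries. The call was lost without any 1 of C151S vehicle replicates 1, 2, and 3 or of WT vehicle replicates 1, 3, 4, and 5 (-0.54 to -0.64, adjusted p of 0.0697 to 0.1003). Hmox1 and Slc40a1 gave higher estimates in C151S that missed the threshold, with log2 differences of 0.42 ± 0.14 (adjusted p = 0.0893) and 0.40 ± 0.13 (adjusted p = 0.0849). Hmox1 was at 22.3, 19.8, 24.6, 13.5, and 17.1 CPM in these C151S mice, of which the last 2 had low Arntl. Both genes were called without the low-Arntl libraries (0.61 with adjusted p = 0.0022 and 0.51 with adjusted p = 0.0217), and single libraries decided both: Hmox1 was called without C151S vehicle replicate 4 (0.53, adjusted p = 0.0120) and Slc40a1 without WT vehicle replicate 3 (0.50, adjusted p = 0.0414).

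Between the 2 mutants given vehicle, Ftl1 was the 1 gene of the 10 that was called, higher in C151S than in Nrf2KO mice by 1.62-fold (1508 ± 132 against 929 ± 89.7 CPM, log2 0.70 ± 0.10, adjusted p = 0.0104), beside 0.307% of all genes called higher. Ftl1 and Fech had groups that did not overlap, beside 2.88% of all genes. The median log2 difference of the 10 genes was 0.49 and that over all genes -0.01. Fth1 (log2 0.50 ± 0.13, adjusted p = 0.197) and Blvrb (log2 0.49 ± 0.21, adjusted p = 0.418) had estimates of the same sign that did not pass the test.

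After CDDO-Me, WT mice stood above both mutants for Blvrb and Ftl1. Blvrb in WT mice was 3.05-fold the C151S level (229 ± 14.9 against 74.8 ± 14.3 CPM, log2 1.61 ± 0.13, adjusted p = 4.29e-05) and 5.53-fold the Nrf2KO level (41.2 ± 10.1 CPM, log2 2.47 ± 0.15, adjusted p = 1.14e-06). Ftl1 was 2.02-fold the C151S level (2954 ± 335 against 1451 ± 249.4 CPM, log2 1.01 ± 0.15, adjusted p = 0.0026) and 3.21-fold the Nrf2KO level (913 ± 73.2 CPM, log2 1.68 ± 0.12, adjusted p = 3.72e-06). These were the 2 of 10 genes called against C151S, beside 2.8% of all genes called higher. In addition, Fth1 was 2.12-fold (2024 ± 336 against 949.6 ± 147 CPM, adjusted p = 0.00067) and Slc40a1 1.81-fold (191 ± 34.6 against 105 ± 21.1 CPM, adjusted p = 0.0059) the Nrf2KO level, which made 4 of 10 called, beside 4.85%. All 6 of these calls held in 17 of 17 alternative fits. Of 7 macrophage markers, Marco was called higher in WT than in C151S (log2 1.13 ± 0.28, adjusted p = 0.0345) and Nrf2KO mice (log2 2.14 ± 0.36, adjusted p = 0.0026), while the summed markers overlapped at 148 to 230.5 CPM in WT, 137 to 283 in C151S, and 106 to 247 in Nrf2KO mice, and the part of macrophages in the Slc40a1 result was not tested. The endothelial marker Fcgr2b was lower in WT than in C151S mice (-0.66).

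Every WT CDDO-Me mouse was above every mutant mouse so treated in 3 of the 10 genes against C151S (Blvrb, Ftl1, and Fth1) and in 4 against Nrf2KO (these and Slc40a1). Of all genes, 7.53% and 10.8% had groups that did not overlap, in either direction. Fth1 against C151S narrowly missed the threshold (log2 0.51 ± 0.14, adjusted p = 0.0536) and was called without C151S CDDO-Me replicate 1 (0.54, adjusted p = 0.0345). Slc40a1 against C151S was also just short of it (log2 0.65 ± 0.19, adjusted p = 0.0639), as was Tfrc (log2 0.97 ± 0.31, adjusted p = 0.0795), and DESeq2 called both. Slc40a1 was called without C151S CDDO-Me replicate 1 or 2 (0.51 and 0.75, adjusted p = 0.0340 and 0.0440), and Tfrc without WT CDDO-Me replicate 3 (1.17, adjusted p = 0.0354). In the other direction, Alas1 was called lower in WT without C151S CDDO-Me replicate 2 (-1.26, adjusted p = 0.0171). Against Nrf2KO the calls that 1 library decided were Hmox1 without Nrf2KO CDDO-Me replicate 5 (0.56, adjusted p = 0.0240), Alas1 without the same library (-0.94, adjusted p = 0.0451), and Tfrc without WT CDDO-Me replicate 3 (1.07, adjusted p = 0.0448). Hamp, Alas1, and Hmox1 gave estimates below 0 in WT against C151S CDDO-Me mice (log2 -0.86 ± 0.31, -1.04 ± 0.37, and -0.23 ± 0.16, adjusted p = 0.114, 0.115, and 0.388). DESeq2 called the Hamp difference (-0.85, adjusted p = 0.0439), and without the low-Arntl libraries it was -0.30 (adjusted p = 0.732), with means of 1422 CPM in the 3 low-Arntl and 806 CPM in the 2 high-Arntl C151S mice beside 652 CPM in WT mice.

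The 2 mutants given CDDO-Me differed in 0 of the 10 genes in edgeR, beside 0.162% of all genes. Of the 10, 4 had an unadjusted p under 0.05, beside 1110 of the 14186 genes tested. DESeq2 called 3 of the 10 there, Blvrb (0.86), Ftl1 (0.67), and Fth1 (0.57), each higher in C151S. Blvrb and Ftl1 were also the 2 of 10 with groups that did not overlap, beside 1.85% of all genes.

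Alas1 is a gene whose level in the mutants moved with the Arntl sets. C151S vehicle mice were at 205, 553, and 231 CPM with high Arntl and at 1226 and 987 CPM with low Arntl. C151S CDDO-Me mice were at 709 and 342 CPM with high Arntl and at 1804, 1534, and 1373 CPM with low Arntl, so that in both C151S groups every low-Arntl mouse was above every other. Nrf2KO vehicle mice were at 149.8 and 40.0 CPM with high Arntl and at 202, 622, and 878 CPM with low Arntl, and Nrf2KO CDDO-Me mice were at 633 and 441 CPM and at 818, 1211, and 1648 CPM, with the same order. The comparisons of Alas1 with WT changed sign without the low-Arntl libraries in 3 of 4 cases, all uncalled: 1.19 became 0.24 for C151S against WT with vehicle, 0.45 became -1.55 for Nrf2KO against WT with vehicle, and with CDDO-Me -1.04 became 0.11 for WT against C151S and -0.76 became 0.06 for WT against Nrf2KO. The sets were read from the Arntl level and not from a label of time, and their part in Alas1 was not tested apart from this. All 10 WT libraries had high Arntl. The 4 mutant sets with both treatments had higher mean Alas1 CPM with CDDO-Me in each case, by log2 0.51 (C151S, low), 0.67 (C151S, high), 1.11 (Nrf2KO, low), and 2.50 (Nrf2KO, high), from 2 or 3 mice a side and without a test.

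Outside the 10, 84 genes of the same pathways were listed by function, of which 79 to 81 passed the filter in each comparison. In WT mice 9 rose with CDDO-Me and 2 fell, beside 1.66% and 1.1% of all genes, with a median log2 change over the 79 tested of 0.05. Heme breakdown, scavenging, and transport held 5 of these 11 calls, with 5 of 16 genes higher and 0 lower. Slc48a1, which moves heme out of the lysosome, was at 51.0, 61.2, 45.3, 47.3, and 48.6 CPM with vehicle and at 96.5, 94.4, 99.99, 121, and 153 CPM with CDDO-Me. The groups did not overlap (log2 1.15 ± 0.13, adjusted p = 0.00036). Abcc3 (log2 0.98 ± 0.13, adjusted p = 0.00093) and Abcc2 (log2 0.73 ± 0.12, adjusted p = 0.0037), which export bilirubin conjugates to blood and bile, and the heme-binding Pgrmc1 (log2 0.52 ± 0.08, adjusted p = 0.0037) also rose. The Pgrmc1 call was lost without any 1 of WT CDDO-Me replicates 3 and 4 or WT vehicle replicates 2 and 4, where its log2 change was 0.49 to 0.50 and so under the limit. The other gene called was Hp for haptoglobin (log2 1.15 ± 0.25, adjusted p = 0.0195), named after its values were seen, with uncalled changes of 1.59 ± 0.51 in C151S and 0.77 ± 0.40 in Nrf2KO mice.

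Heme synthesis beyond Alas1 and Fech had 11 genes tested, of which 0 rose and 1 fell. An unadjusted p under 0.05 was found for 1 of the 11, beside 2327 of the 13697 genes tested. The gene that fell was Alas2, the synthase of red cell precursors (139.5 ± 14.03 CPM with vehicle, log2 -0.60 ± 0.12, adjusted p = 0.0113), while the other 4 tested red cell markers were not called. Its estimates in C151S and Nrf2KO mice were close to that in WT mice and were not called (-0.60 ± 0.19 and -0.50 ± 0.25, adjusted p = 0.347 and 0.656). Of 13 tested genes for mitochondrial iron and iron-sulfur clusters, only Slc25a37, the mitochondrial iron importer mitoferrin, rose (log2 0.72 ± 0.10, adjusted p = 0.00093). Iron uptake, storage, and export had 15 genes tested, of which Steap2, a metalloreductase (log2 0.62 ± 0.11, adjusted p = 0.0069), and Lcn2, which binds iron-carrying siderophores (log2 4.25 ± 0.99, adjusted p = 0.0303), rose and Hamp2 fell. Lcn2 was uneven between treated mice, at 523, 400.4, 55.4, 33.8, and 60.6 CPM, beside 38.8 CPM in 1 vehicle mouse and 2.51 to 6.49 CPM in the other 4. The Lcn2 call was lost without any 1 of WT CDDO-Me replicates 1 and 2 or WT vehicle replicates 1, 3, and 5 (3.60 to 4.11, adjusted p of 0.0665 to 0.0819). In the mutants the Lcn2 estimates were larger and more uneven, and neither was called (6.56 ± 1.56 in C151S and 5.10 ± 1.46 in Nrf2KO mice, adjusted p = 0.285 and 0.547). The WT response of Lcn2 and those of the mutants were not told apart (differences of -2.31 ± 1.82 and -0.88 ± 1.79, adjusted p = 0.773 and 0.976). With all 30 libraries in 1 fit, the WT calls of Alas2, Steap2, Lcn2, and Hamp2 were lost (adjusted p = 0.238, 0.123, 0.207, and 0.605). Of 5 neutrophil markers, 2 were tested in WT mice, and S100a8 alone was called (log2 1.69 ± 0.38, adjusted p = 0.0235). The summed CPM of the 5 overlapped, at 0.697 to 1.45 with vehicle and 1.02 to 2.97 with CDDO-Me. Ly6g and Camp were at or under 3 counts in every library of both groups, and Ngp was so in every CDDO-Me library. The part of neutrophils in the Lcn2 result was not tested.

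**Figure D3:**
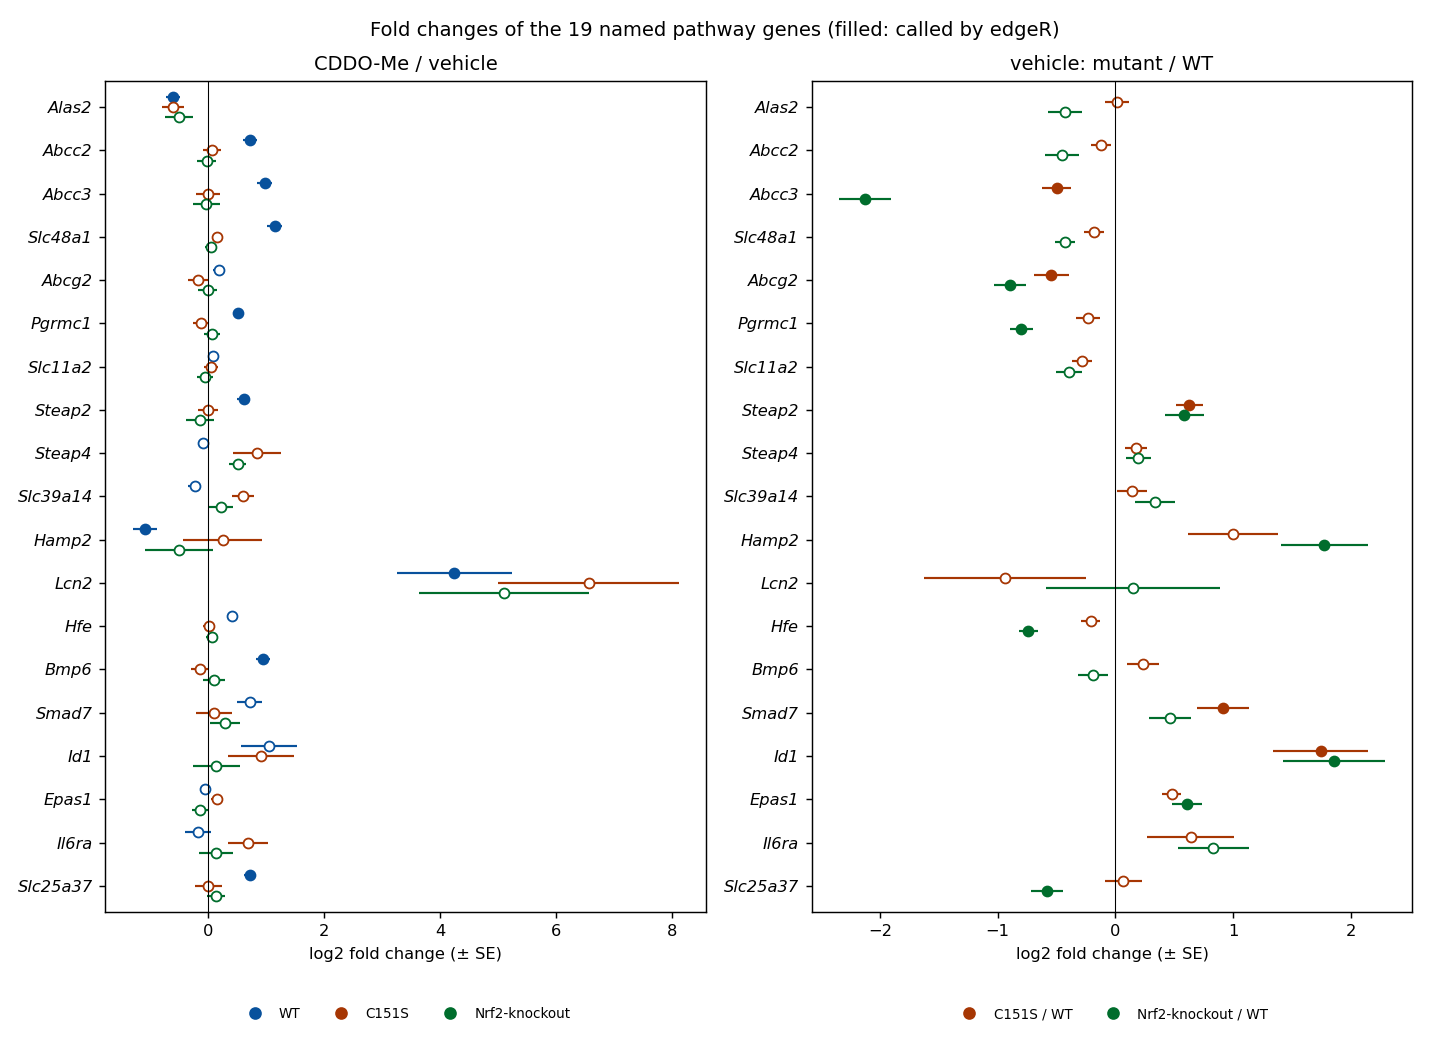
Log2 fold changes with standard errors (horizontal axes) of 19 named pathway genes outside the 10, for treatment within each genotype and for genotypes compared with WT in vehicle mice. Filled points passed the limits. Slc48a1, Bmp6, and Abcc3 rise with CDDO-Me in WT mice and lie near 0 in both mutants.

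Of 24 tested genes that sense iron or set hepcidin, only Bmp6 rose in WT mice. Bmp6, the BMP ligand that signals liver iron to hepatocytes, was at 4.70, 6.23, 4.79, 4.93, and 5.33 CPM with vehicle and at 10.01, 8.65, 8.85, 11.1, and 12.02 CPM with CDDO-Me. All treated mice were above all vehicle mice (log2 0.95 ± 0.12, adjusted p = 0.00057). Endothelial cells are a known source of Bmp6 in liver, and the summed endothelial markers overlapped between these groups (183 to 221 and 175 to 209 CPM, 0 of 6 called). Readouts of BMP signaling gave estimates above 0 that were not called: Id1 1.05 ± 0.48 (adjusted p = 0.287) and Smad7 0.72 ± 0.21 (adjusted p = 0.0814). Hfe, a partner of the transferrin receptors in hepcidin control, gave 0.42 ± 0.06 (adjusted p = 0.0011), under the limit on fold change.

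Hamp2, the neighbouring and near-identical copy of Hamp in mice, was called lower in WT mice, while the Hamp estimate above 0 was not called. It was at 28.9, 40.6, 20.03, 33.8, and 34.2 CPM with vehicle and at 11.2, 11.8, 12.6, 22.02, and 17.1 CPM with CDDO-Me. A single treated mouse was above the lowest vehicle mouse (log2 -1.09 ± 0.21, adjusted p = 0.0115). The Hamp2 call was lost with all 30 libraries in 1 edgeR fit (log2 -1.08, adjusted p = 0.605). Reads that fit both copies were not counted, so the split between Hamp and Hamp2 is uncertain.

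**Figure D4:**
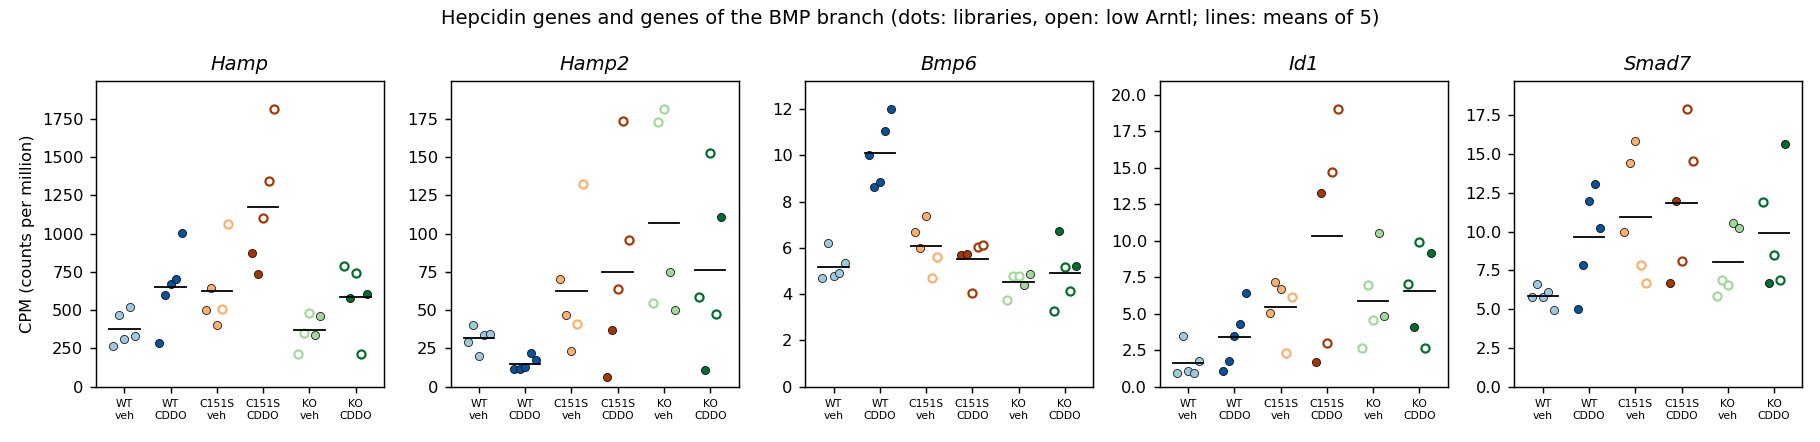
CPM of Hamp, Hamp2, Bmp6, Id1, and Smad7 (vertical axes, linear) in each library, by genotype and treatment. Points are mice, lines are means of 5 mice, and open points are libraries with low Arntl. Bmp6 separates WT mice by treatment without overlap, and the WT estimates of Hamp (not called) and Hamp2 (called) differ in sign.

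In C151S and Nrf2KO mice, 0 of 79 and 0 of 81 tested pathway genes were called after CDDO-Me in edgeR, with 11 and 3 at an unadjusted p under 0.05. Over all genes tested, 1942 of 14128 and 1136 of 14474 had such a p. The WT response of Slc48a1 was larger than that of C151S mice by 1.00 ± 0.15 (adjusted p = 0.00058) and than that of Nrf2KO mice by 1.09 ± 0.15 (adjusted p = 0.00021). For Bmp6 the difference was 1.096 ± 0.22 against C151S (adjusted p = 0.0093) and 0.84 ± 0.22 against Nrf2KO (adjusted p = 0.128). These 2 genes against C151S, and Slc48a1 against Nrf2KO, were the pathway genes called among 81.

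In vehicle mice, 9 of 79 pathway genes differed between Nrf2KO and WT livers, 4 of them higher and 5 lower, beside 6.29% and 4.13% of all genes. Abcc3 was 4.37-fold lower (log2 -2.13 ± 0.22, adjusted p = 0.00029), and Pgrmc1 (-0.80), Abcg2, a porphyrin exporter (-0.90), Hfe (-0.74), and Slc25a37 (-0.58) were also lower. Hamp2 (1.78), Id1 (1.86), Epas1, which codes for the hypoxia factor HIF-2α (0.61), and Steap2 (0.58) were higher. In C151S vehicle mice 5 of 79 differed from WT: Id1 (1.74), Smad7 (0.91), and Steap2 (0.63) were higher and Abcc3 (-0.50) and Abcg2 (-0.55) lower, beside 2.59% and 2.25% of all genes. For both mutants these counts were near the shares over all genes, and a shift of the lists as a whole was not tested. Id1 and Smad7 are targets of BMP signaling, and Bmp6 itself gave 0.23 ± 0.14 (adjusted p = 0.306) in C151S against WT vehicle mice. Several of these calls were lost in other fits. Without the low-Arntl libraries, Steap2 in Nrf2KO was at 0.50 (adjusted p = 0.0853), Abcc3 in C151S was at -0.42, under the limit on fold change, and Hamp2 in Nrf2KO was at 1.00 and still called (adjusted p = 0.0372). Leaving out 1 library lost Steap2 in Nrf2KO for 8 of the 10 libraries, and in C151S it lost Abcg2 for 8, Abcc3 for 7, Smad7 for 6, and Id1 for 5. With all 30 libraries in 1 fit, the C151S calls of Abcc3, Steap2, Smad7, and Id1 were lost (adjusted p of 0.0595 to 0.155). Abcc3 and Hfe were higher in C151S than in Nrf2KO vehicle mice (1.63 and 0.53), and Hfe was lost without any 1 of 9 libraries (0.49 to 0.58, adjusted p of 0.0511 to 0.153).

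After CDDO-Me, 11 of 79 pathway genes differed between WT and C151S mice and 15 of 80 between WT and Nrf2KO mice, beside 5% and 9.44% of all genes. Genes of heme breakdown and transport were higher in WT, 5 of 16 against C151S and 6 of 16 against Nrf2KO, with none lower. Abcc3 was 2.77-fold the C151S and 8.76-fold the Nrf2KO level, and Slc48a1 2.25-fold and 2.86-fold. Hfe and Bmp6 were higher in WT than in both mutants (Hfe 0.61 and 1.09, Bmp6 0.86 and 1.03 on the log2 scale), while Il6ra, the interleukin 6 receptor (-1.50 and -1.15), Slc39a14, an inflammation-induced iron transporter (-0.98 and -0.79), Epas1 (-0.68 and -0.53), and Hamp2 (-2.34 and -2.37) were lower. Hamp2 overlapped between WT and each mutant: C151S mice were at 6.19 and 36.9 CPM with high Arntl and at 63.5, 173.5, and 95.8 CPM with low Arntl, beside 11.2 to 22.02 CPM in WT mice. Without the low-Arntl libraries, Hamp2 differed by -0.53 from C151S (adjusted p = 0.670) and by -2.06 from Nrf2KO mice (adjusted p = 0.0730), and neither was called. The calls of Epas1 (-0.53, adjusted p = 0.0779) and Hfe (0.46, under the limit) against C151S, and that of the iron transporter Slc11a2 against Nrf2KO (0.33, adjusted p = 0.181), were also lost in that fit. Leaving out 1 library lost Hamp2 for 8 of 10 libraries and Abcc2 for 4 against C151S, and Epas1 for 5 and Slc11a2 for 4 against Nrf2KO. Abcc3 was the only one of 80 pathway genes called between the 2 mutants (3.17-fold higher in C151S, adjusted p = 0.0135).

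The genes whose log2 CPM followed each of the 10 most closely were found by Pearson r over the 30 libraries among 13167 genes, as a description in which points share groups. Those of Blvrb were Txnrd1 (r = 0.965) and Ubap1 (0.965), and those of Ftl1 were Gstm1 (0.970) and Creg1 (0.964). Fth1 was followed most closely by Gpx4 (0.959) and Akr1a1 (0.956). The r values were lower for Alas1 (Mfsd2a, 0.843), Slc40a1 (Samd4, 0.820), Hamp (Tlnrd1, 0.800), Tfrc (Ube4a, 0.792), and Blvra (Gypc, 0.713), and for Hmox1 and Fech they were 0.890 with Dmpk and 0.880 with Ces1c.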

How the data were processed

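RNA of 30 mouse livers was sequenced from TruSeq stranded mRNA libraries with paired ends. The authors deposited raw counts per gene, which STAR 2.7.7 made for the strand of the library against mm10, per the labels and the study's methods, after a quality check with fastp that removed no reads. Symbols, positions, and untranslated regions came from GENCODE M21 (GRCm38), in which 55154 of 55335 genes had an entry, 54587 of them in the same version as in the table. Reads with several positions (10.5% to 16.9% of reads) were not counted.

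Groups followed the genotype and treatment labels. Each comparison of 2 groups used its 10 libraries in edgeR 4.0.16 (R 4.3.3): filterByExpr, trimmed mean of M values, and the quasi-likelihood F-test in its legacy form, with calls at an adjusted p (Benjamini-Hochberg) under 0.05 and a log2 fold change of 0.5 or more in size. Response differences were contrasts in a fit of all 30 libraries without a size limit. A standard error is the log2 change divided by the square root of F. CPM used scaled library sizes, log2 CPM a prior count of 2, and the floor was 3 counts, which covers counting error only. Isolation dates, a covariate in the study's methods, were not used here. The p-values set a difference of group means against the spread between mice of a group, which the labels number from 1 to 5. For response differences that spread came from all 30 libraries, the genotype outside the contrast included.

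Alternatives were DESeq2 1.42.0, upper-quartile scaling, no filter, no fold limit, 1 fit of all libraries, a replicate block, leaving out each library, and the low-Arntl set as a covariate or left out. Counts for the WT comparison (13952 genes) were simulated with the spread of all 30 libraries, the mutant groups included. In them, 58% of changes of 1 log2 unit and 81% of changes of 2 were recovered, with 7 false calls. These shares need not hold for the spread of the WT libraries alone. The 10 genes, 84 pathway genes in 5 lists, and 8 marker lists were chosen with earlier results of these data known, and 1 listed gene is not reported here. Named are the 10, at most 4 called genes of a list and comparison by lowest p, genotype and treatment checks, close copies, and the 2 protein-coding genes most alike to each of the 10. Hp and the called markers of cell types were named after their values were seen.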

Additional observations from a re-analysis of the deposited data

Results flagged for a closer look

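In groups of 5 mice, 1 mouse stood apart from the other 4 (Dixon's test at the 95% level) in 10 of 174 groups of CPM values, for 29 genes examined. Chance flags about 1 in 20 groups. Among the 10 genes this touched only Hmox1, at 22.03 CPM in WT CDDO-Me replicate 5 beside 14.9 to 15.8 in the others, and at 23.8 CPM in Nrf2KO CDDO-Me replicate 5 beside 10.2 to 13.5. In C151S CDDO-Me replicate 1, Lcn2 was at 2614 CPM beside 12.3 to 79.0, Steap4 at 410.2 beside 74.2 to 122, and Slc39a14 at 509.8 beside 267 to 313. In Nrf2KO CDDO-Me replicate 2, Lcn2 was at 1999 CPM beside 7.83 to 77.3 and Slc39a14 at 435 beside 232 to 285. The same C151S mouse had the lowest Slc40a1 of its group, at 69.6 CPM beside 123 to 148 in the other 4. Lcn2 was also apart in WT vehicle replicate 4, at 38.8 CPM beside 2.51 to 6.49. The others were Abcc3 at 425 CPM in WT vehicle replicate 1 beside 319.8 to 346 and Bmp6 at 4.03 CPM in C151S CDDO-Me replicate 3 beside 5.71 to 6.13.

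Responses to CDDO-Me differed between genotypes, by the tests given in the report, for 4 of the 29 genes. Of the 29, 19 were pathway genes named because a comparison called them, and these differences were among the comparisons. So 4 of 29 is not a rate. Over all genes tested, 0.386% had a larger WT response than in C151S and 0.24% than in Nrf2KO mice. The WT response exceeded that of C151S mice by 0.91 for Ftl1, 1.096 for Bmp6, and 1.00 for Slc48a1 on the log2 scale. It exceeded that of Nrf2KO mice by 0.87 for Ftl1, 1.35 for Blvrb, and 1.09 for Slc48a1.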

How the results depend on the processing

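No called value changed direction under any alternative. Of the 20 calls for the 10 genes, those lost are named in the report, apart from calls lost under the replicate block below. Uncalled estimates near 0 changed sign 17 times outside the fits that left out 1 library and 53 times within them. The cause of the changes that follow was not tested.

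In counts of genes called over all genes tested, DESeq2 gave 120 for treatment in C151S, 50 for treatment in Nrf2KO, 1075 for vehicle C151S against WT, 193 for vehicle C151S against Nrf2KO, 1212 for CDDO-Me WT against C151S, 131 for CDDO-Me C151S against Nrf2KO, and 111 and 82 for the response differences of WT with C151S and with Nrf2KO. Of the 10 genes, DESeq2 called 2 for vehicle C151S against WT, 2 for vehicle C151S against Nrf2KO, 7 for CDDO-Me WT against C151S, 3 for CDDO-Me C151S against Nrf2KO, and 3 for the response difference of WT with C151S, and of the pathway genes 4 for vehicle C151S against Nrf2KO and 2 for the response difference of WT with Nrf2KO. Without a limit on fold change, all genes called were 580 for treatment in WT, 1160 for vehicle C151S against WT, and 2307 for vehicle Nrf2KO against WT (16 pathway genes). Upper-quartile scaling gave 7 genes for treatment in C151S, 1 pathway gene for vehicle C151S against Nrf2KO, and 2 of the 10 genes for the response difference of WT with C151S, as did a fit of only the 2 genotypes for the last. Without a filter, all genes called were 23 for treatment in C151S, 79 for vehicle C151S against Nrf2KO (1 pathway gene), and 35 for CDDO-Me C151S against Nrf2KO, and 4 of the 10 genes were called for CDDO-Me WT against C151S.

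With all 30 libraries in 1 fit, all genes called were 147 for treatment in WT (6 pathway genes), 34 in C151S, 11 in Nrf2KO, 382 for vehicle C151S against WT (1 pathway gene), 99 for vehicle C151S against Nrf2KO, and 126 for CDDO-Me C151S against Nrf2KO, with 5 of the 10 genes for CDDO-Me WT against C151S and 3 for CDDO-Me C151S against Nrf2KO. Leaving out the low-Arntl libraries gave 2030 genes for vehicle C151S against WT (3 of the 10 genes and 10 pathway genes) and 294 for CDDO-Me WT against C151S. With the Arntl set as a covariate, all genes called were 4 for treatment in C151S and 89 for vehicle C151S against Nrf2KO, 1 of the 10 genes was called for CDDO-Me C151S against Nrf2KO, and the response difference of WT with C151S had 2 of the 10 genes and 5 pathway genes.

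The labels number mice 1 to 5 in each group, and in no comparison did all 5 same-numbered pairs of mice correlate above 0.1 (0 to 3 of 5), the limit for treating the numbers as a pairing. The mean correlation of same-numbered mice was highest for treatment in Nrf2KO (0.18, beside -0.04 for other numbers) and for CDDO-Me WT against C151S (0.15, beside -0.04), with 3 of 5 pairs above 0.1 in each, and was lowest between vehicle mutants (-0.19). With the number as a replicate block, all genes called were 2 for treatment in C151S, 9 for vehicle C151S against Nrf2KO (0 of the 10 genes and 0 pathway genes), 8 for CDDO-Me C151S against Nrf2KO, and 23 for the response difference of WT with Nrf2KO (1 of the 10 genes), with 5 of the 10 genes for CDDO-Me WT against C151S and 0 for the response difference of WT with C151S. In that fit the adjusted p was 0.0682 for Alas1 with treatment in WT, and for Ftl1 it was 0.114 between vehicle mutants and 0.0576 and 0.116 for its response differences.

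Leaving out 1 library at a time, all genes called ranged from 0 to 22 for treatment in C151S, 390 to 1168 for vehicle C151S against WT (0 to 2 of the 10 genes, 1 to 6 pathway genes), 949 to 2050 for vehicle Nrf2KO against WT (8 to 14 pathway genes, with 14 without Nrf2KO vehicle replicate 1), 29 to 54 for vehicle C151S against Nrf2KO (1 to 2 pathway genes), 379 to 1303 for CDDO-Me WT against C151S (2 to 4 of the 10 genes), and 11 to 38 for CDDO-Me C151S against Nrf2KO. The count of 22 came without C151S vehicle replicate 4, as did 1168, and that of 390 without C151S vehicle replicate 2. The count of 949 came without Nrf2KO vehicle replicate 3, that of 379 without WT CDDO-Me replicate 1, and that of 1303 without C151S CDDO-Me replicate 1. The response differences ranged from 1 to 2 of the 10 genes with each mutant, and from 1 to 2 pathway genes with Nrf2KO. The wide SDs of Alas1 and Hamp limit what 5 mice a group can show for those genes.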
